A study of Danio rerio with 9 samples.

Results

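The azithromycin comparison set liver RNA from zebrafish larvae exposed to azithromycin against liver RNA from larvae exposed to the vehicle DMSO. Its members were every pathway row of the authors' deposited azithromycin table in the KEGG, Reactome, and PANTHER databases, and every distinct gene listed in those rows with its direction, taken by Entrez identifier. There were 817 of the 7048 pathway rows and 417 of the 1154 distinct genes listed in any of the 8 compound tables of the series. Wild-type AB larvae were exposed at 3 days post-fertilization (dpf) for 72 h to azithromycin or to 1 of 7 of its impurities (named F, I, J, L, Q, R, and S), each at 2 mM, or to DMSO, and livers were dissected at 6 dpf. Each of the 9 conditions had 1 library, so no result below has a replicate check, and no test was possible. The number of larvae pooled in a library is not given in the sources used here.

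Azithromycin is a macrolide antibiotic that binds the bacterial ribosome. As a basic, lipophilic compound it accumulates in the lysosomes of animal cells, where drugs of this kind can lead to a buildup of phospholipids. The liver takes up, oxidizes, and conjugates drugs and exports them in bile, and its hepatocytes also run most of the carbohydrate, lipid, and amino acid metabolism of the animal. The series was designed to evaluate liver toxicity of the drug and its impurities, which are structurally related compounds that accompany it.

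A gene is listed in a table when the authors called it differentially expressed against the DMSO library, by a fold-change threshold stated for upregulated genes, and when it belongs to at least 1 pathway. The tables give its direction only, so the size of a change, the expression level, and the depth of each library cannot be taken from them. A gene that is not listed may have been unchanged, below the threshold, or outside every pathway, and these cannot be told apart. All 8 compounds were compared with the same DMSO library, so anything unusual in that library would reach every table. In RNA from whole tissue, fewer cells of a type and less RNA per cell cannot be told apart. How reads shared between near-identical genes were counted is not given in the sources used here, and directions of ribosomal protein, actin, myosin, and tandemly duplicated cytochrome P450 genes are therefore uncertain.

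Azithromycin was listed with nearly as many genes in one direction as in the other, and genes of enzymes, transporters, and signaling proteins stood on both sides. Of the 417 genes, 218 were listed as upregulated and 199 as downregulated, so that 52.3% were upregulated. KEGG held 304 of them (159 upregulated and 145 downregulated), Reactome held 254 (133 and 121), and PANTHER held 16 (7 and 9). KEGG pathways were grouped by the number range of their identifiers, which only roughly follows the named classes. Metabolism, with ABC transporters, held 93 of the genes (49 upregulated and 44 downregulated). Genetic information, with PPAR signaling, held 79 (44 and 35). Signaling and cellular processes, with ubiquitin mediated proteolysis and protein processing in the endoplasmic reticulum among others, held 160 (78 and 82). As a background, the share of all gene and pathway pairs that were listed for azithromycin was 6.98% in KEGG (3.51% as upregulated and 3.47% as downregulated), 7.63% in Reactome (3.81% and 3.82%), and 3.00% in PANTHER (0.837% and 2.16%). A pathway's share below is the number of its listed genes over its background genes, read against these values. For the gene and marker lists, the share over all single genes is not known here. A list member outside every pathway could not be listed, so few or no listed members is not a result about a process.

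The rows overlapped strongly in their genes. A gene stood in a median of 4.0 rows, 78 genes stood in 1 row, and 12 stood in over 50 rows. The 817 rows held 449 distinct sets of genes, and 297 rows held 1 gene each. Proteasome subunits led by number of rows. The core subunit gene *psma1* (Entrez 445033) was listed as upregulated in 156 rows and the activator gene *psme4b* as upregulated in 148, while the core subunit genes *psmb2* and *psmb7* were listed as downregulated in 155 rows each. Together, 6 proteasome genes (3 upregulated and 3 downregulated) were found in 156 rows, among them rows named for the cell cycle, immunity, and signaling. Next came kinase signaling genes. The regulatory subunit of phosphoinositide 3-kinase *pik3r1* was downregulated in 89 rows, the calcium/calmodulin-dependent kinases *camk2d1* and *camk2b1* were downregulated in 88 and upregulated in 86, the growth factor genes *pdgfba* and *nrg1* were upregulated in 86 and downregulated in 85, and the adaptor gene *shc1* was upregulated in 82. These 6 genes, *rasgrf1*, and *mapk8b* accounted for 207 rows. The results below are therefore given by gene.

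**Figure D1:**
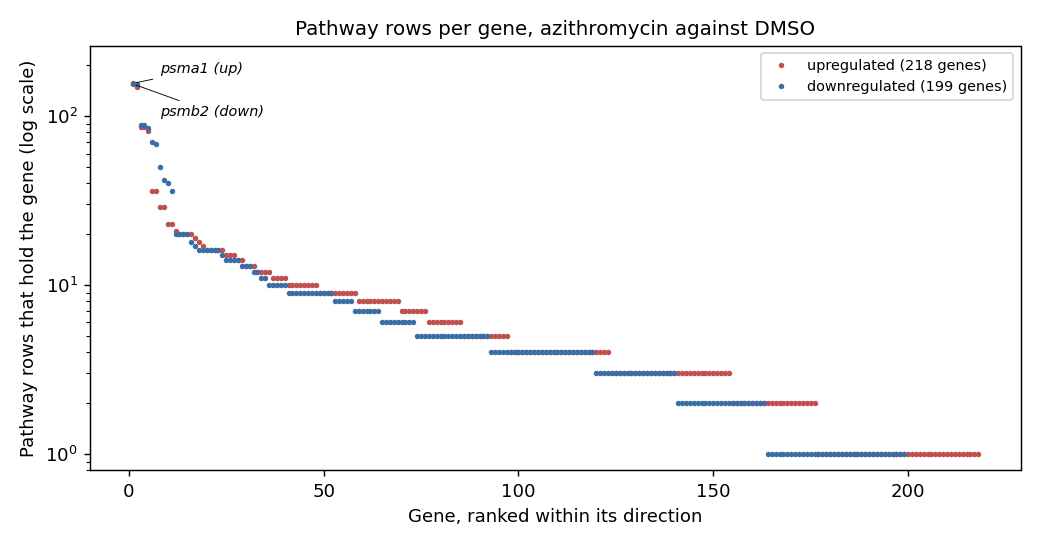
Number of pathway rows (log scale) that hold each gene listed for azithromycin against DMSO, with the 218 upregulated genes in red and the 199 downregulated genes in blue, each ranked within its direction. A few genes, led by *psma1* (156 rows) and *psmb2* (155 rows), stand in far more rows than the median gene (4.0 rows).

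Among KEGG pathways with at least 10 background genes and at least 3 listed genes, 87 were ranked by share, and 58 of them lay above 6.98%. The minimum of 3 listed genes places every ranked pathway of up to 42 background genes above that value (3 of 42 is 7.14%). The number above the background is therefore in part set by the ranking rule and is not read as a result. Both directions were present in 74, upregulated genes alone in 9, and downregulated genes alone in 4. Of the 15 pathways with the highest shares, 10 were pathways of carbohydrate, lipid, amino acid, or cofactor metabolism or of transport across membranes. Of all 125 KEGG pathways with a listed gene, ranked or not, 60 were pathways of metabolism or ABC transporters. Small pathways reach high shares with few listed genes, so the 10 of 15 are not read as a metabolic theme.

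**Figure D2:**
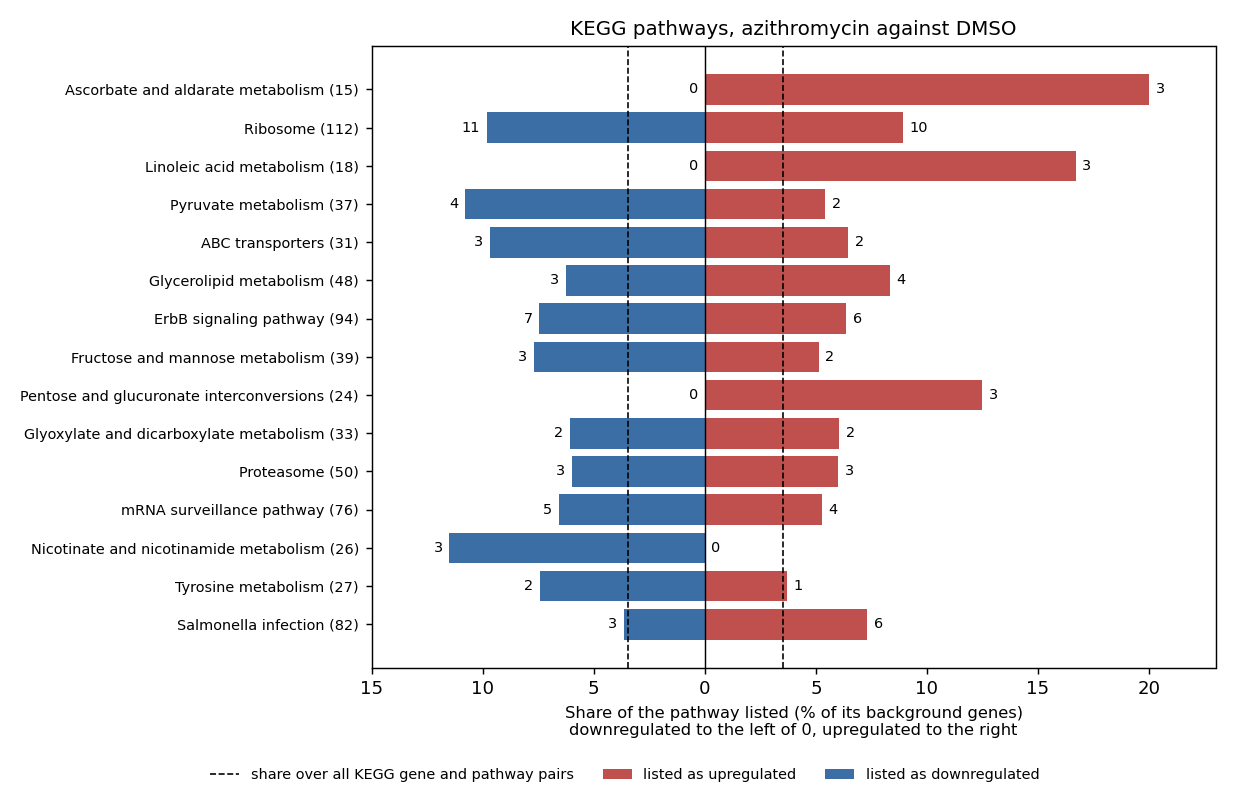
The 15 KEGG pathways with the highest share of background genes listed for azithromycin against DMSO, with the number of background genes in brackets, the percent listed as upregulated to the right in red, and the percent listed as downregulated to the left in blue. Numbers at the bars are genes, and the dashed lines mark the background shares of 3.51% and 3.47%. Ascorbate, linoleic acid, and pentose metabolism lie on the upregulated side alone, and nicotinate metabolism lies on the downregulated side alone.

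A pair of aldehyde dehydrogenase genes recurred among the upregulated genes of metabolism. Ascorbate and aldarate metabolism had the highest share, with 3 of 15 genes (20%), all upregulated. They were *aldh2.2* (Entrez 368239), which encodes a mitochondrial aldehyde dehydrogenase, *aldh9a1b*, a dehydrogenase of aminoaldehydes, and *gkup*, a glucuronokinase. Both dehydrogenase genes also stood in pyruvate and glycerolipid metabolism, where other listed genes were downregulated. Among pathways listed with upregulated genes alone, both stood in beta-alanine metabolism (3 of 29 genes, 10.3%), lysine degradation (4 of 52, 7.69%), and fatty acid degradation (3 of 38, 7.89%). The shares of lysine and fatty acid degradation were close to the KEGG background. The third gene of fatty acid degradation was *cpt2*, whose product transfers fatty acyl groups from carnitine to coenzyme A inside mitochondria. Pentose and glucuronate interconversions listed 3 of 24 genes (12.5%), all upregulated, with the xylulose reductase gene *dcxr* beside *aldh2.2* and *gkup*. In the impurity tables, *aldh9a1b* was upregulated for Q, R, L, S, and F, *gkup* for R, and *dcxr* for S, while *aldh2.2* was listed for none of the 7.

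Of the genes listed for central carbon metabolism, 5 were upregulated and 6 were downregulated over carbon metabolism, pyruvate metabolism, and the TCA cycle. Pyruvate metabolism listed 6 of 37 genes (16.2%), of which the 2 aldehyde dehydrogenase genes were upregulated and 4 were downregulated. The 4 were *acss2* (cytosolic acetyl-CoA synthetase), *me1* (malic enzyme, a source of NADPH), *mdh1aa* (cytosolic malate dehydrogenase), and *hagh*, which removes methylglyoxal adducts of glutathione. *mdh1aa* was also downregulated for impurities I, Q, R, L, S, and F, whereas *me1* was upregulated for impurity I and downregulated for impurities R and F. Fructose and mannose metabolism listed 5 of 39 genes (12.8%). The genes *gmppaa* and *enosf1* were upregulated, and *gmds*, which starts GDP-fucose synthesis, and *pfkfb3* and *tigara*, which set the level of the glycolytic regulator fructose bisphosphate, were downregulated. Glyoxylate and dicarboxylate metabolism listed 4 of 33 genes (12.1%), with *hao2* and *shmt1* upregulated and *mdh1aa* and the glutamine synthetase gene *glulb* downregulated. *glulb* was downregulated for impurity J as well, but upregulated for impurities L, S, and F. Nicotinate and nicotinamide metabolism listed 3 of 26 genes (11.5%), all downregulated: the aldehyde oxidase gene *aox6*, the nucleotidase gene *nt5c2a*, and the nucleoside phosphorylase gene *pnp5a*. Tyrosine metabolism listed 3 of 27 (11.1%), with *hgd* upregulated and *gstz1* and *aox6* downregulated. *hgd* and *gstz1* encode consecutive steps of tyrosine breakdown.

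Of the lipid genes, 5 were upregulated and 6 were downregulated over glycerolipid and glycerophospholipid metabolism. Glycerolipid metabolism listed 7 of 48 genes (14.6%). Upregulated were *dgat2* (Entrez 565316), which catalyzes the last step of triglyceride synthesis, the acyltransferase gene *agpat3*, and the 2 aldehyde dehydrogenase genes. Downregulated were *lpin1*, whose product converts phosphatidate to diacylglycerol, the phosphatase gene *plpp3*, and the diacylglycerol kinase gene *dgkza*. *lpin1* was downregulated in all 7 impurity tables, and *dgat2* was upregulated for I, Q, and F. Glycerophospholipid metabolism listed 8 of 79 genes (10.1%), 2 as upregulated and 6 as downregulated. The PPAR signaling pathway listed 5 of 56 genes (8.93%). Among them, the stearoyl-CoA desaturase gene *scd*, *cpt2*, and the sterol hydroxylase gene *cyp27a1.4* were upregulated, and the receptor gene *ppardb* was downregulated. Of a list of 60 genes of fatty acid and triglyceride metabolism, 4 were listed, namely *scd*, *cpt2*, and *dgat2* as upregulated and *lpin1* as downregulated. None of a list of 27 genes of cholesterol and sterol synthesis was listed for azithromycin. The share over single genes is not known, and 6.98% is a share of KEGG gene and pathway pairs. The absence is not read as a result about sterol synthesis.

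Drug and bile acid genes were listed in both directions. Of a list of 49 genes of bile acid and drug metabolism, 43 of them with a known symbol, 4 were listed, all as upregulated, where 52.3% of all 417 genes were: *cyp27a1.4*, whose mammalian counterpart acts in bile acid synthesis, *cyp2p6*, *abcb11a*, a homolog of the mammalian bile salt export pump, and the quinone reductase gene *nqo1*. Outside the list, the bile acid synthesis gene *hsd3b7* and the carboxylesterase gene *ces2* were downregulated. Linoleic acid metabolism listed 3 of 18 genes (16.7%), the cytochrome P450 genes *cyp2p6*, *cyp2p9*, and *cyp2p10*, all upregulated, and the same 3 made up arachidonic acid metabolism. In the Reactome row of biological oxidations, 8 of 101 genes were listed, 3 as upregulated and 5 as downregulated. That share lay close to the 7.63% over Reactome. Among the downregulated genes was *porb*, of the reductase that passes electrons to cytochromes P450. *cyp2p6* was also upregulated for impurities J, Q, and L, *cyp2p9* for impurity L, and *cyp2p10* was listed for no impurity. *abcb11a* (Entrez 797269) was upregulated for azithromycin and impurities Q, S, and F and downregulated for impurities J, I, and R. *nqo1* was upregulated for azithromycin and downregulated for impurities R, L, and S. ABC transporters listed 5 of 31 genes (16.1%). Besides *abcb11a*, the cholesterol exporter paralog *abca1b* was upregulated, while its partner *abca1a*, the multidrug resistance transporter gene *abcc1*, and *abcc8*, a subunit of potassium channels, were downregulated. *abcc1* was downregulated in all 7 impurity tables, *abca1a* in those of J, Q, R, and S, and *abca1b* was listed in none of them.

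**Figure D3:**
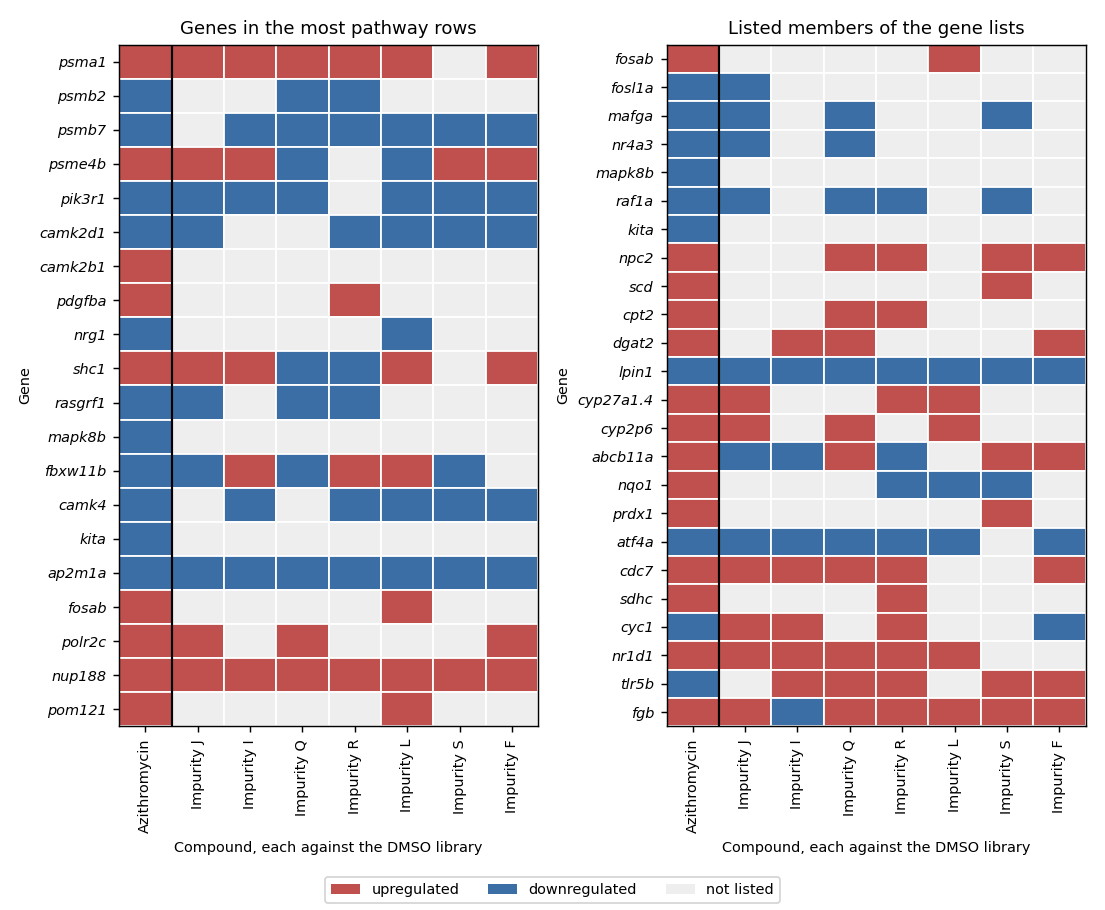
Direction of genes listed for azithromycin (left column of each panel) and in the 7 impurity tables, each against the same DMSO library, for the 20 genes in the most pathway rows (left) and listed members of the gene lists (right). Red marks upregulated, blue downregulated, and gray not listed. *lpin1* is blue in every column, and *abcb11a*, *nqo1*, and *tlr5b* hold both colors.

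Growth factor signaling genes were listed in both directions. The ErbB signaling pathway, which carries signals of the epidermal growth factor receptor family, listed 13 of 94 genes (13.8%). Its ligand gene *nrg1* was downregulated and its receptor gene *erbb3b* was upregulated. Among the kinases and adaptors, *shc1*, *araf*, *abl2*, and *camk2b1* were upregulated, and *pik3r1*, *akt2l*, *raf1a*, *pak1*, *mapk8b*, and *camk2d1* were downregulated. The mTOR signaling pathway listed 10 of 163 genes (6.13%, below the KEGG background), 1 as upregulated and 9 as downregulated. The downregulated genes included *tsc1a* and *tsc2* of the tuberous sclerosis complex, which restrains mTOR, but also *akt2l*, *pik3r1*, and *raf1a*, which act toward it, the ribosomal S6 kinase gene *rps6ka1*, and the cap-binding translation factor gene *eif4e1c*. Activators and inhibitors of the pathway thus stood on the same side. Insulin signaling listed 14 of 144 genes (9.72%), with 4 upregulated and 10 downregulated. The leptin gene *lepb* and the leptin receptor gene *lepr* were downregulated together with *akt2l* and *mapk8b*, the only other listed genes of adipocytokine signaling. That pathway listed 4 of 75 genes (5.33%, below the KEGG background). *lepr* was downregulated in all 7 impurity tables, and *lepb* was listed in 1 of them, as upregulated for impurity S. Of a list of 51 MAP kinase and growth factor genes, 4 were listed, 1 as upregulated and 3 as downregulated. The downregulated members were *mapk8b*, *raf1a*, and the receptor gene *kita*. *mapk8b* (a JNK gene, Entrez 65236) and *kita* were listed in no impurity table. Of a list of 43 AP-1 and immediate-early genes, the c-fos homolog *fosab* (Entrez 394198) was upregulated and *fosl1a*, *mafga*, and *nr4a3* were downregulated.

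Set side by side, the mTOR signaling pathway had 1 upregulated and 9 downregulated genes for azithromycin, 1 and 8 for impurity J, 2 and 5 for I, 2 and 7 for Q, 2 and 7 for R, 5 and 6 for L, 5 and 7 for S, and 2 and 12 for F. Insulin signaling pathway genes numbered 4 upregulated and 10 downregulated for azithromycin, 3 and 9 for J, 4 and 6 for I, 2 and 8 for Q, 6 and 8 for R, 7 and 6 for L, 5 and 5 for S, and 5 and 7 for F. The calcium signaling pathway, in which 14 of 197 genes (7.11%, close to the KEGG background) were listed for azithromycin, had 8 upregulated and 6 downregulated genes for azithromycin, 2 and 6 for J, 6 and 8 for I, 3 and 5 for Q, 6 and 9 for R, 3 and 8 for L, 1 and 6 for S, and 1 and 8 for F. Downregulated genes outnumbered upregulated genes for the mTOR pathway in all 8 tables. For azithromycin the share of that pathway, 6.13%, lay below the KEGG background, and no background shares are given here for the impurities. Whether azithromycin differed from an impurity in these gene numbers was not tested, since each compound had 1 library and all share their DMSO library.

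**Figure D4:**
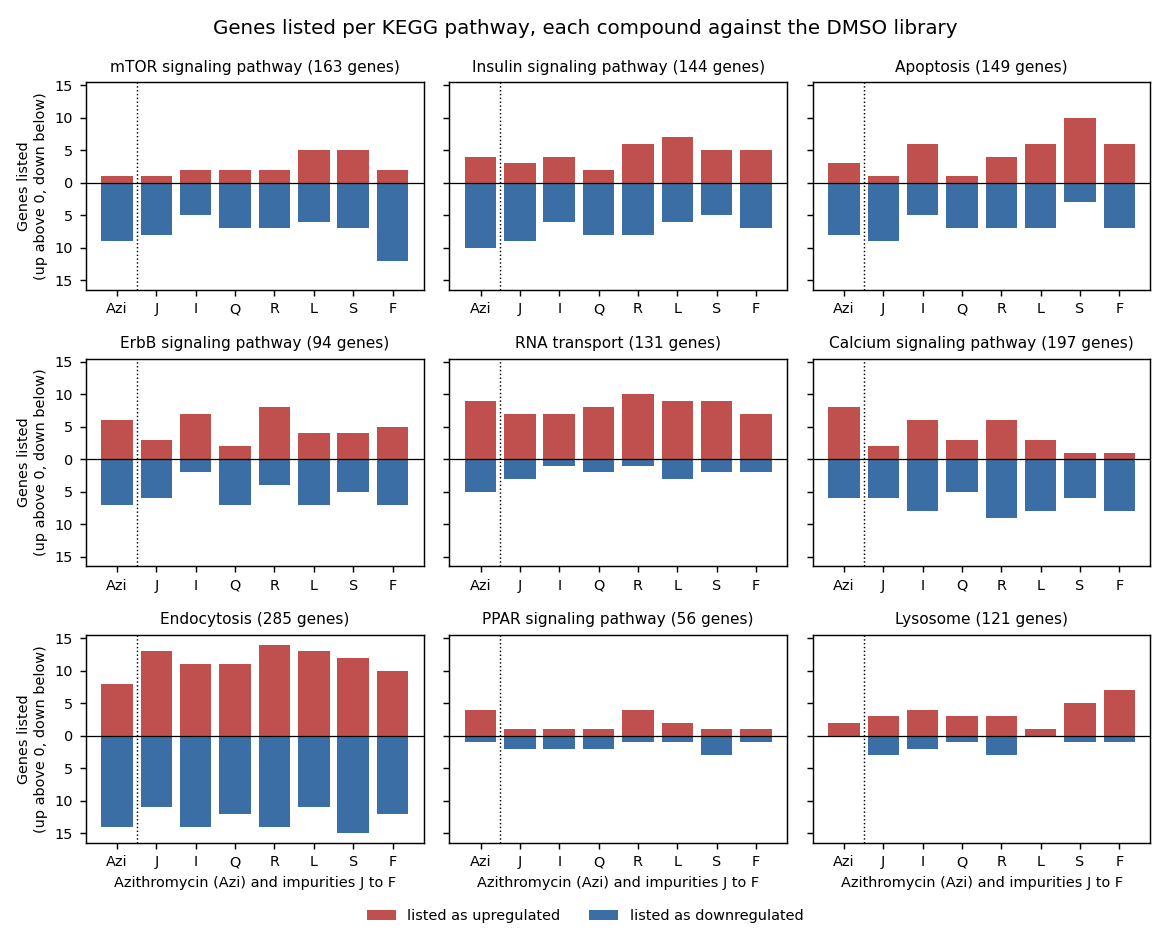
Number of genes listed as upregulated (red, above 0) and as downregulated (blue, below 0) in 9 KEGG pathways for azithromycin (Azi, left of the dotted line) and the 7 impurities, each against the same DMSO library, with the number of background genes in brackets. The mTOR pathway has 1 upregulated and 9 downregulated genes for azithromycin and more downregulated than upregulated genes in every other column. Its share of genes listed for azithromycin lies below the KEGG background.

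Genes of cell death and innate immunity stood on both sides. Apoptosis in KEGG listed 11 of 149 genes (7.38%, close to the KEGG background), 3 as upregulated and 8 as downregulated. Upregulated genes included *fosab* and the calpain gene *capn2b*, and *pik3r1*, *akt2l*, *raf1a*, *birc2*, *itpr3*, *mapk8b*, *atf4a*, and *actb1* were downregulated. Survival and stress genes stood together in the downregulated set, as *birc2* encodes an inhibitor of apoptosis and *atf4a* a transcription factor of the integrated stress response. For azithromycin *birc2* was downregulated, as for impurities J and Q, and it was upregulated for impurities F, L, R, and S. The Reactome row of apoptosis, with other genes, listed 5 of 38 (13.2%, against 7.63% over Reactome), of which 4 were upregulated. None of a list of 38 genes of p53 and apoptosis was among the 417. The share over single genes is not known, and 6.98% is a share of KEGG gene and pathway pairs. The KEGG p53 signaling pathway, with other genes, listed 3 of 69 (4.35%, below the KEGG background), all downregulated. RIG-I-like receptor signaling listed 3 of 49 genes (6.12%, below the KEGG background), all downregulated, with the kinase gene *ikbke*, *mapk8b*, and *tmem173* (now *sting1*), the sensor adaptor of cytosolic DNA signaling. The flagellin receptor gene *tlr5b* (Entrez 403139) was downregulated for azithromycin and upregulated for impurities I, Q, R, S, and F. Of 68 genes of inflammation and complement, *tlr5b* and the fibrinogen gene *fgb* were listed, and *fgb* was upregulated. Salmonella infection listed 9 of 82 genes (11%), 6 as upregulated and 3 as downregulated, among them *fosab*, *pkn2*, the filamin genes *flnca* and *flncb*, and *zgc:100918* as upregulated and *actb1*, *mapk8b*, and *tlr5b* as downregulated.

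Protein synthesis and breakdown genes had both directions within single complexes. The KEGG ribosome listed 21 of 112 genes (18.8%). Upregulated genes included *rps4x*, *rps12*, *rps15a*, *rpl7a*, *rpl9*, *rpl26*, and *rplp2*, and *rps2*, *rps8a*, *rps18*, *rps19*, *rpl8*, *rpl10*, *rpl17*, *rpl27*, *rpl31*, *rpl34*, and the mitochondrial *mrpl11* were downregulated. Small and large subunit proteins stood on both sides. The proteasome listed 6 of 50 genes (12.0%), with *psma1*, the cap ATPase gene *psmc3*, and *psme4b* upregulated and *psmb2*, *psmb7*, and the cap scaffold gene *psmd1* downregulated. In the impurity tables, *psma1* was upregulated for each but S, *psmb7* was downregulated for each but J, and *psmd1* was upregulated for J and F and downregulated for I, Q, R, and S. Protein processing in the endoplasmic reticulum listed 5 of 157 genes (3.18%), 1 as upregulated and 4 as downregulated. Of a list of 44 genes of the unfolded protein response and heat shock, *atf4a* alone was listed, as downregulated, as it was for each impurity but S.

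Genes of RNA transport and surveillance were listed in both directions. RNA transport listed 14 of 131 genes (10.7%), 9 as upregulated and 5 as downregulated. The upregulated genes included *ran* and *xpo1b*, which encode the GTPase and an export receptor of nuclear transport, and the nuclear pore genes *nup188*, *pom121*, *aaas*, and *nup50*. Among the downregulated genes were *nxt2*, *srrm1*, and *acin1a*, which act in mRNA export and splicing. *xpo1b* was listed for no impurity, whereas *nup188* and *aaas* were upregulated for all 7. The mRNA surveillance pathway listed 9 of 76 genes (11.8%), 4 as upregulated and 5 as downregulated, with the RNA-binding protein genes *msi1*, *msi2b*, and *dazap1* and the polyadenylation scaffold gene *sympk* upregulated, and *acin1a*, *nxt2*, *srrm1*, and *ppp2r5a* among the downregulated genes. *acin1a* (Entrez 368893) was downregulated for azithromycin and upregulated in all 7 impurity tables. The Reactome row of transport of mature transcript to cytoplasm listed 7 of 32 genes (21.9%), 3 as upregulated and 4 as downregulated.

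The Reactome pathways described here were chosen after their values were seen. Chromatin organization listed 6 of 67 genes (8.96%, against 7.63% over Reactome), all upregulated. They were the histone demethylase genes *kdm1a*, *kdm4b*, and *kdm6a*, the histone acetyltransferase gene *hat1*, *kansl1b*, and the chromatin remodeler gene *smarce1*. For the impurities, the chromatin organization row had 1 upregulated and 2 downregulated genes for J, 4 and 1 for I, 1 and 1 for Q, 2 and 3 for R, 2 and 1 for L, 0 and 3 for S, and 4 and 1 for F. SUMOylation of RNA binding proteins listed 6 of 21 genes (28.6%), of which *nup188*, *pom121*, *hnrnpk*, *scmh1*, and *phc2b* were upregulated and *phc2a* was downregulated. KEGG pathways of DNA repair together held 11 genes, 8 upregulated and 3 downregulated. The shares of its pathways with at least 3 listed genes, 8.33% for base excision repair, 8.82% for nucleotide excision repair, and 8.89% for the Fanconi anemia pathway, lay little above the KEGG background. Of these, *ercc5*, an excision endonuclease gene, was upregulated and the damage sensor gene *ddb2* was downregulated, each also in all 7 impurity tables. The endonuclease gene *apex1* (Entrez 406730) was upregulated for azithromycin and downregulated for impurities I, Q, R, L, S, and F. Of a list of 59 cell cycle genes, *cdc7*, a kinase gene of replication start, was the listed member and was upregulated. The KEGG cell cycle listed 6 of 126 genes (4.76%), and DNA replication, with 31 background genes, listed none for azithromycin.

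Among membrane traffic pathways, endocytosis listed 22 of 285 genes (7.72%, close to the KEGG background), 8 as upregulated and 14 as downregulated. The early endosome genes *rab5aa* and *rab5b* were upregulated, and the clathrin adaptor gene *ap2m1a* was downregulated, as it was in all 7 impurity tables. Lysosome listed 2 of 121 genes (1.65%), both upregulated, namely *npc2*, which moves cholesterol out of lysosomes, and the adaptor gene *ap1m2*. For the impurities, Lysosome had 3 upregulated and 3 downregulated genes for J, 4 and 2 for I, 3 and 1 for Q, 3 and 3 for R, 1 and 0 for L, 5 and 1 for S, and 7 and 1 for F. Of a list of 59 lysosome and autophagy genes, *npc2* was the listed member.

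The remaining lists held few listed members, which is not read as a result about these processes. Of 27 oxidative stress genes, *prdx1*, a peroxiredoxin gene, was upregulated. Of 96 genes of the mitochondrial ribosome and oxidative phosphorylation, *sdhc* of complex II was upregulated and *cyc1* of complex III was downregulated. *cyc1* was upregulated for impurities J, I, and R and downregulated for impurity F. Of 30 clock genes, the repressor gene *nr1d1* was upregulated, as for impurities I, J, L, Q, and R. In these lists together, 25 entries were listed for azithromycin.

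The tables hold no expression levels, and a marker was listed only when called differentially expressed, so the label liver could not be checked. The listed markers are given for their directions alone. Of 22 hepatocyte markers, *fgb* was upregulated and the transferrin gene *tfa* was downregulated. Of 28 muscle markers, 5 were listed (*mylpfa*, *mylz3*, and *tpma* as upregulated and *tnnc2* and *tnnt3b* as downregulated), and the Reactome row of striated muscle contraction listed 9 of 23 genes (39.1%), with *mylz3* upregulated and 8 genes of fast, slow, and cardiac-type muscle, such as *tnnt1*, *smyhc2*, and *tcap*, downregulated. Of 15 macrophage and neutrophil markers, *marco* was downregulated. Of 13 skin markers, *anxa1c* and *tp63* were upregulated, of 13 stellate cell and fibroblast markers, *col1a2* and *acta2* were upregulated, and of 17 nervous system markers, *gad1b* was upregulated. No marker of biliary cells, exocrine or endocrine pancreas, intestine, erythrocytes, or endothelium was listed, which does not show whether such cells were present. The part of these cell types in the directions given above was not tested.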

How the data were processed

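Livers of zebrafish larvae exposed to azithromycin, 1 of 7 impurities, or DMSO were sequenced, with 1 library per condition. Reads were processed by the authors, whose notes name FastQC, fastp, HISAT2, and the genome build GRCz11. The annotation, the counting tool, and a test for single genes are not given in the sources used here. The authors' deposited tables hold, per pathway, the number of listed genes, the number of background genes, the corresponding fraction of each, the raw and corrected p-value of their own enrichment test, and the listed genes with direction. The deposited numbers of genes and the directions were used. The deposited fraction and p-value columns were not used, as p-values hold the authors' own comparisons. No columns of per-sample values were unmapped (0). No separate DMSO table was used. The methods of the study state triplicates, whereas each condition here had 1 library, so no test, interval, or correction was computed, and depth is unknown.

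Genes were counted by Entrez identifier. Symbols are those of the files, where 10 of the 417 were blank. All 417 matched a RefSeq gene table (assembly GRCz12tu, used for names only), which gave another current symbol for 26. Background shares are listed gene and pathway pairs over all pairs of a database (725 of 10387 in KEGG, 3003 of 39378 in Reactome, and 43 of 1434 in PANTHER). Named genes were the listed members of the gene and marker lists, the genes of the 15 KEGG pathways with the highest shares (at least 10 background and 3 listed genes), the 20 genes in the most rows, and genes of described pathways with opposite directions for azithromycin and an impurity. Other genes named as examples of a described pathway were chosen after their values were seen. The members and lists were chosen with earlier results of these data known. The reading of the tables was tested on simulated data. Python 3.11.15, pandas 2.3.3, numpy 2.4.6, and matplotlib 3.10.9 were used. Alternatives were single databases, 1 entry per symbol, genes in at least 2 rows, and other minimum numbers of genes. A further alternative left out KEGG pathways named for an infection, diabetic complications, or Fanconi anemia, while PANTHER disease pathways stayed in. Some items are not reported here.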

Additional observations from a re-analysis of the deposited data

How the results depend on the processing

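With 1 library per condition, no library could be left out, and no spread, depth, or detection limit was known. No paired analysis was possible because each condition had 1 library and no result comes from a test. The planned promoter motif comparison was not run, since promoter sequences were not used here. From the Reactome rows alone, 254 genes (133 upregulated and 121 downregulated) were listed in place of 417 (218 and 199), and from the PANTHER rows alone 16 (7 and 9). From the KEGG rows alone there were 304 genes (159 and 145). Counted per symbol there were 408, where the 10 genes with a blank symbol counted as 1 entry. In at least 2 rows there were 339. Without the KEGG pathways named for an infection, diabetic complications, or Fanconi anemia there were 413. The number of KEGG pathways above the background share, 58 in the ranking used, was 37 when at least 5 listed genes were required and 38 when upregulated genes alone were counted. It was 40 with downregulated genes alone, 58 with at least 5 background genes, and 56 with at least 20. Each setting also changed which pathways were eligible. The single-direction numbers required at least 3 genes of that direction and were read against its own background share. Small eligible pathways lay above the background by their size alone, so these numbers do not show how stable the shares are. Of the 25 listed members of the gene lists, 21 stood in KEGG rows, 14 in Reactome rows, and 2 in PANTHER rows.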

Other observations

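Several paralogs and metabolic genes not described above were listed for azithromycin, and they are given as values that were chosen after they were seen. The guanylate kinase paralog *guk1b* was upregulated and *guk1a* downregulated for azithromycin, while *guk1a* was downregulated for impurities I, Q, R, and S and *guk1b* was listed for none of them. Purine metabolism in KEGG listed 15 of 162 genes (9.26%), 8 as upregulated and 7 as downregulated. In polyamine metabolism, *odc1*, the first enzyme of polyamine synthesis, was upregulated and *sat1a.2*, an enzyme of polyamine breakdown, was downregulated. *odc1* was downregulated for impurity J, and *sat1a.2* was listed for no impurity. The threonine dehydrogenase gene *tdh* was upregulated for azithromycin and impurity S and downregulated for impurities J, I, Q, R, L, and F.

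Many KEGG pathways had genes listed for impurities and none for azithromycin. Those given here were chosen after their values were seen, as the ones with the most genes listed for a single impurity. Most of the others had few genes listed for any impurity, and no background shares are given here for the impurities. Over all KEGG gene and pathway pairs 6.98% were listed for azithromycin, so few genes would be listed in pathways of this size. Starch and sucrose metabolism, with 33 background genes, listed 0 genes for azithromycin, 1 for impurity J, 5 for I, 1 for Q, 2 for R, 2 for L, 4 for S, and 2 for F. Fatty acid elongation, with 29 background genes, listed 0 for azithromycin, 1 for J, 4 for I, 1 for Q, 2 for R, 0 for L, 2 for S, and 2 for F. The elongase gene *elovl1a* was listed as downregulated for azithromycin in Reactome rows. DNA replication, with 31 background genes, listed 0 for azithromycin, 1 for J, 3 for I, 2 for Q, 0 for R, 4 for L, 1 for S, and 1 for F. These differences were not tested.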
